A study of Homo sapiens with 6 samples.

Results

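The genes described here encode, in nuclear DNA, the subunits and a set of the assembly factors of respiratory complexes II, III and IV, of cytochrome c and of complex V, the ATP synthase. They were taken from the deposited table by symbol: the SDH, SDHAF, UQCR, UQCC, COX and ATP5 families with CYC1 and CYCS. That rule matched 91 rows; 20 pseudogenes and 2 antisense or intergenic RNAs were left out, and 69 protein-coding genes of 25808 genes in the table were kept. No measured value was used to choose them. RNA was sequenced from HK2, an immortalised human cell line derived from proximal tubule epithelium, whose labels say no more than human kidney cell. In 3 libraries confluent cells had been kept for 48 h with 20 µM TBOEP, an organophosphate ester added to plastics and coatings to slow fire; in the other 3 the cells had DMSO, a solvent, at a dose and for a time that are not given. All 6 libraries are of the same line, with no genetic change named for either group. Nothing states that the replicates were grown apart, so each p-value covers the spread between libraries alone, and that spread may be technical.

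Complex II passes electrons from succinate to ubiquinone, complex III from ubiquinol to cytochrome c, and complex IV from cytochrome c to oxygen. Complexes III and IV pump protons while they do so, and complex V lets protons back through its membrane ring and makes ATP in its F1 head. Proximal tubule cells are rich in mitochondria and rely on this chain to power the uptake of filtered solutes. Complex II is encoded by nuclear genes alone, whereas complexes III, IV and V each combine nuclear subunits with subunits made from mitochondrial DNA.

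The values are FPKM, which scale the reads of a gene by the length of its gene model and by the reads of its library, so they can be set side by side across libraries and, with the limit given below, across genes. The library totals that these values imply were 35838657, 34890085 and 32547856 reads in TBOEP libraries 1 to 3 and 38247579, 33536445 and 36093609 in DMSO libraries 1 to 3. One read on a gene model of 1 kb was worth 0.0261 to 0.0307 FPKM. PAX8, a transcription factor of kidney epithelium, had 36.5, 36.7 and 36.9 FPKM in the TBOEP libraries, against 37.4, 35.6 and 38.4 FPKM in the DMSO libraries and did not pass the test, and the epithelial marker CDH1 was near 0. Markers of mature proximal tubule, CUBN, SLC34A1, SLC5A2, AQP1 and ANPEP, each averaged under 1 FPKM in both groups, and the transcription factor HNF4A was near 0. Summed over the 9 proximal tubule markers used here the level was 50.8 to 54.6 FPKM in TBOEP and 57.3 to 59.2 FPKM in DMSO, with MIOX, an enzyme of inositol breakdown, the 1 that was called, as a fall that was not called once GC content and length were corrected for as described below; over 5 epithelial markers it was 743 to 762 FPKM in TBOEP and 833 to 869 FPKM in DMSO. Of those 5, KRT8 (-0.31) and KRT19 (-0.19) fell, KRT18 (0.22) rose and EPCAM (0.17) did not pass, as log2 fold changes; after that correction KRT19 (0.07) was called higher and EPCAM (-0.17) lower. Their part in the results below was not tested. Markers of endothelium, loop of Henle and collecting duct summed to under 1 FPKM in every library. Of leukocyte markers only CSF1R was tested and it was not called, of podocyte markers only SYNPO, likewise not called, and of fibroblast markers only COL1A1, with 22.2, 22.2 and 22.4 FPKM in the TBOEP libraries, against 28.2, 28.96 and 25.9 FPKM in the DMSO libraries. COL1A1 was called as a fall, at -0.30 on the log2 scale and -0.22 after that correction, still called.

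Across the chain, more genes fell than rose in TBOEP-treated cells, and most shifts were small. Of the 69 genes, 57 reached 1 FPKM in at least 3 of 6 libraries and were tested by limma on log2(FPKM + 1), with adjustment over all 9631 tested genes. With TBOEP, 13 rose, 24 fell and 20 did not pass an adjusted p of 0.05. The rises were 22.8% of the tested genes of the chain, where 26.9% of all tested genes rose, and the falls were 42.1%, where 26.9% of all tested genes fell. So the share that rose was near this background and the share that fell was above it. In either direction 53.8% of all tested genes and 64.9% of those of the chain were called. With a filter at 5 FPKM the calls were 3714 of 5205 genes and 37 of 49 of the chain, so the background depends on level. How all genes split by direction under that filter was not compared. The median log2 fold change was -0.08, against -0.02 over all tested genes. In 39 of the 57 genes the groups did not overlap, 15 with TBOEP higher and 24 with TBOEP lower; over all tested genes 62.3% did not overlap, 30.5% higher and 31.8% lower. All 37 called genes were among those 39. The log2 fold change was smaller than 0.5 in either direction for 28 of the 37, and 1 gene, ATP5F1A, changed by at least 2-fold. The values are shares of each library, so a change in the amount of an mRNA in each cell and a change in the make-up of the cells cannot be told apart.

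**Figure D1:**
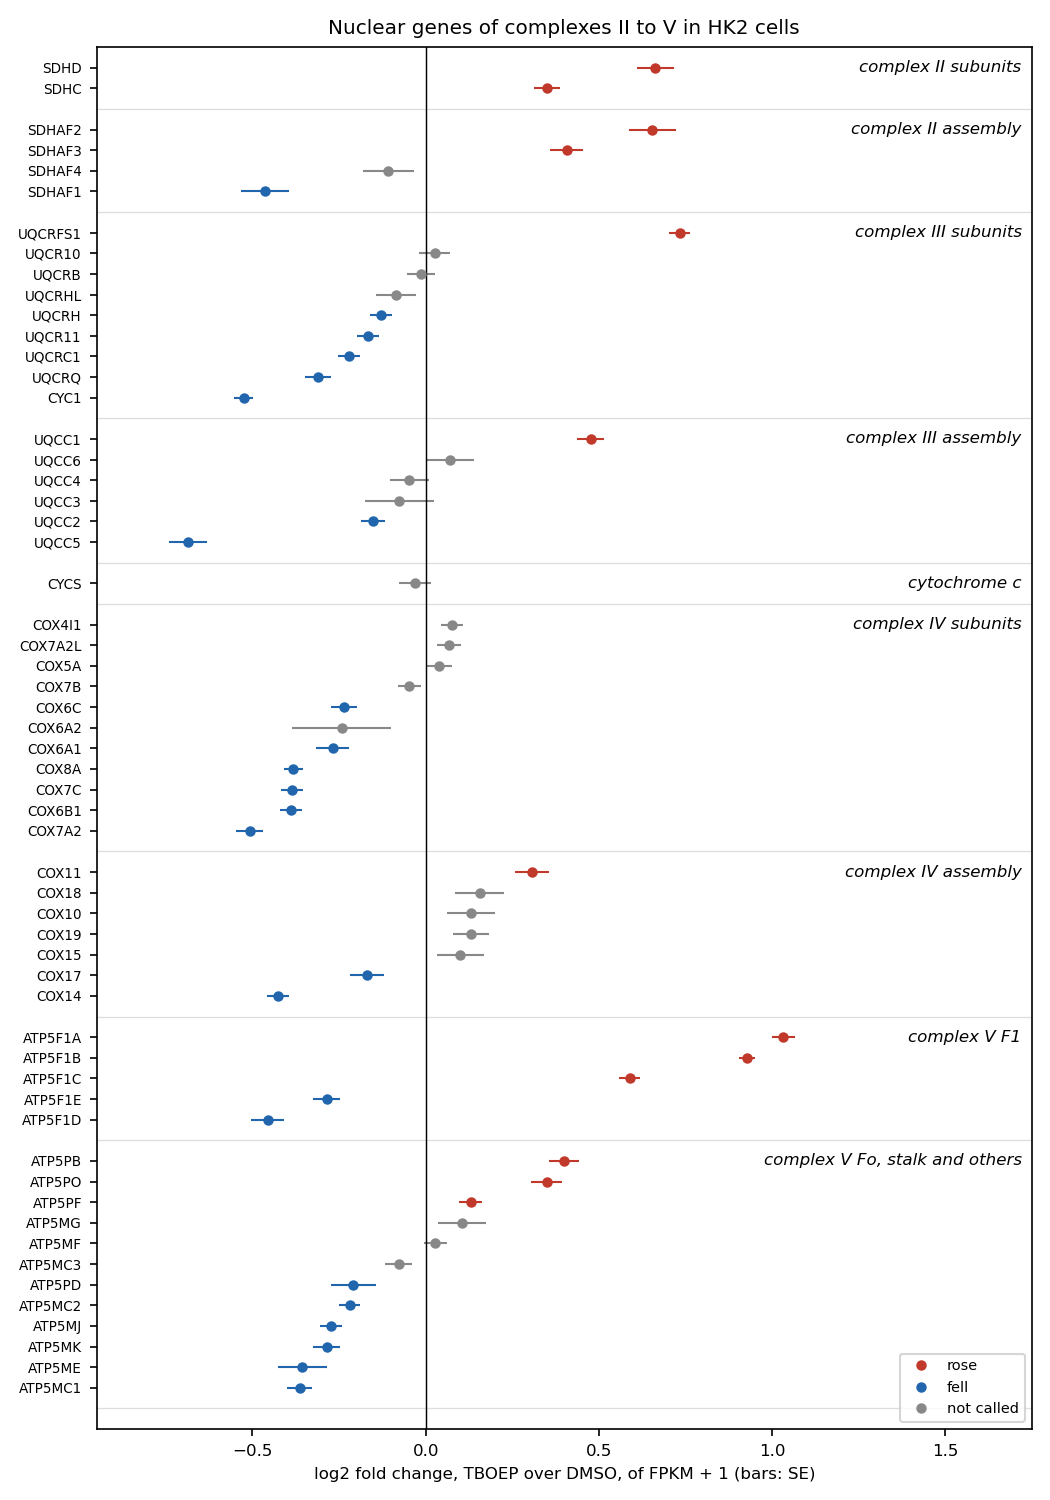
Log2 fold change, TBOEP over DMSO, of each of the 57 tested genes on the log2(FPKM + 1) scale with its standard error (3 libraries a group), grouped by complex and role. The F1 head of complex V holds the rises of ATP5F1A and ATP5F1B, and the complex IV subunits hold 6 falls and no rise. Of all tested genes 26.9% rose and 26.9% fell.

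The log2 fold change between the groups varied with the GC content and transcript length of the genes. Fitted together as a smooth surface they accounted for 33.4% of the variance of the log2 fold change over genes, an r2 across genes that are not independent. The labels name 2 library kits without saying which libraries used which, so treatment and library preparation cannot be told apart here. After that surface was subtracted in each library, 14 of the genes rose and 30 fell, with a median of -0.14; over all genes with a known GC content 21.1% rose and 23.9% fell, with a median of -0.02. Of the 37 calls, 33 kept their call and direction. Values after this correction are given below where it ends a call, turns its direction or moves it by more than 1.5 times. When each library was centred on its own median, the median fold change over all genes moved by -0.06. Of all called genes 38.6% were then rises, against 50.1% without centring. With centring, 12 of the 57 tested genes of the chain rose and 26 fell, where 22.0% of all tested genes rose and 35.0% fell. Falls therefore became more frequent over all genes too.

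Promoters of respiratory chain genes are known for binding the factors NRF1 and YY1 and ETS factors such as GABPA. RefSeq promoters (GRCh38.p14, 250 bases before to 50 bases after the start) were in the reference table for 54 of the 69 genes. Each was searched on both strands for GCGCA and GCGC parted by any 1 base (NRF1), AANATGGCG (YY1) and CCGGAAG (ETS), where N is any base and the motifs do not share letters in the promoters printed here. The NRF1 motif was in 31.5% of the 54 promoters and in 8.58% of 15843 promoters of protein-coding genes, the YY1 motif in 18.5% and 4.81%, and the ETS motif in 37.0% and 14.2%. At least 1 motif was in 59.3% of the 54 and 24.2% of all 15843: in 8 of 10 promoters of genes that rose, in 14 of 21 of genes that fell and in 7 of 15 of tested genes that did not pass. The NRF1 motif alone was in 6 of the 10, 7 of the 21 and 3 of the 15. These are matches of letters, not binding sites, and they were compared with no test. The 6 promoters below are shown because each holds a match and they come from both directions of change. They were chosen after the fold changes were seen; each is written 5′ to 3′ on the strand of its gene, and capitals mark the matches.
UQCRFS1: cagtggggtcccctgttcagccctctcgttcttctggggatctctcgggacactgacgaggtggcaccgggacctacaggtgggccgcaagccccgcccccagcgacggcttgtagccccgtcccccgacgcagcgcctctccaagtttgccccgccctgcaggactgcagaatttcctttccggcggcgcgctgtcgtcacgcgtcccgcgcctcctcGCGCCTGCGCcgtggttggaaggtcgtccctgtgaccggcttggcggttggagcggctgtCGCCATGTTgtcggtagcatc
UQCRC1: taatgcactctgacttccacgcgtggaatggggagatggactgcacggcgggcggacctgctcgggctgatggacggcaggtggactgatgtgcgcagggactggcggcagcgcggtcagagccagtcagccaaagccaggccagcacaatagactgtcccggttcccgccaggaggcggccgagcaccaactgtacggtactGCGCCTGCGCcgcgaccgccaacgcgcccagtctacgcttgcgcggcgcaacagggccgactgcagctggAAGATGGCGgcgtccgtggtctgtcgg
SDHD: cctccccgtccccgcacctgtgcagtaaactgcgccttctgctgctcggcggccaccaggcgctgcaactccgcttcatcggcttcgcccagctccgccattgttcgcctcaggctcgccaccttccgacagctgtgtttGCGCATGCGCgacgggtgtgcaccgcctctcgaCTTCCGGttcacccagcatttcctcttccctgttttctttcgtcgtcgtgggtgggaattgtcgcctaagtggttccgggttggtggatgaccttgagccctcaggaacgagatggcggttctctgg
ATP5F1C: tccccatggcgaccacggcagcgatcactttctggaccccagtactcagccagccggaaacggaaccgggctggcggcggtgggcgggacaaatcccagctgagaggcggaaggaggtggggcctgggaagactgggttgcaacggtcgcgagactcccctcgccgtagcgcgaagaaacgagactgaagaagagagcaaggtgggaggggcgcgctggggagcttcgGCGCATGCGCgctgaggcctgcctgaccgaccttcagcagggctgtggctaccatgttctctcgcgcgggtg
UQCC5: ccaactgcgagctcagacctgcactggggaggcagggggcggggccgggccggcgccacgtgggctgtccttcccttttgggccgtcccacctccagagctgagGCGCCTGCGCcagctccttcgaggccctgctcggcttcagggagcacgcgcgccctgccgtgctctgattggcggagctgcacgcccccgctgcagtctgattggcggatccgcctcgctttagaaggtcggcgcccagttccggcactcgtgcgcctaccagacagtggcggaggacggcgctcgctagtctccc
COX8A: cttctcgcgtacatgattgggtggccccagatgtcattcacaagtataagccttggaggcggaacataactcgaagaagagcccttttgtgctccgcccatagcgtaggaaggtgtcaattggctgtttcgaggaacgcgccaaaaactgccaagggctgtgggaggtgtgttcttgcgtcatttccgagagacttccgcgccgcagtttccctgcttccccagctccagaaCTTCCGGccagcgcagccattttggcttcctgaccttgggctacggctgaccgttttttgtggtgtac
UQCRFS1 (chr19:29213102-29213401, minus strand) rose and UQCRC1 (chr3:48609597-48609896, minus strand) fell; both belong to complex III, and each promoter holds an NRF1 match followed by a YY1 match. SDHD (chr11:112086623-112086922, plus strand), with an NRF1 and then an ETS match, and ATP5F1C (chr10:7787927-7788226, plus strand), with an NRF1 match, rose. UQCC5 (chr3:52536355-52536654, plus strand), with an NRF1 match, and COX8A (chr11:63974370-63974669, plus strand), with an ETS match, fell. As they were chosen to hold a match and to come from both directions, these promoters cannot show how the motifs divide. Among all promoters searched, at least 1 motif was in 8 of 10 of genes that rose and 14 of 21 of genes that fell.

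The F1 head of complex V held the largest rises of the chain, and its 5 genes split: 3 rose and 2 fell. Of all tested genes 26.9% rose and 26.9% fell, and no count by complex was tested against these shares. ATP5F1B (ENSG00000110955), the catalytic beta subunit, had 700.0, 695 and 697 FPKM in the TBOEP libraries, against 365, 367 and 366 FPKM in the DMSO libraries. ATP5F1A (ENSG00000152234), the alpha subunit that alternates with beta in the head, had 29.7, 30.6 and 29.8 FPKM in the TBOEP libraries, against 14.3, 14.1 and 14.2 FPKM in the DMSO libraries. ATP5F1C, the gamma subunit that forms the rotor shaft, had 116, 118 and 113 FPKM in the TBOEP libraries, against 77.8, 74.5 and 77.3 FPKM in the DMSO libraries. In all 3 genes every TBOEP library stood above every DMSO library, and the spread within a group was small beside the gap. By limma with Benjamini-Hochberg adjustment the log2 fold change was 0.93 ± 0.02 for ATP5F1B (SE; adjusted p = 2.83e-08), 1.03 ± 0.03 for ATP5F1A (adjusted p = 1.13e-07) and 0.59 ± 0.03 for ATP5F1C (adjusted p = 1.60e-06). As ratios of mean FPKM these were 1.91-fold, 2.12-fold and 1.51-fold, and none of the 3 calls ended in any alternative run.

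The 2 small subunits at the foot of the shaft fell. ATP5F1D, the delta subunit, had 64.1, 65.1 and 68.8 FPKM in the TBOEP libraries, against 96.2, 91.9 and 84.9 FPKM in the DMSO libraries. ATP5F1E, the epsilon subunit, had 149, 148 and 156 FPKM in the TBOEP libraries, against 189, 174 and 191 FPKM in the DMSO libraries. Here every TBOEP library lay below every DMSO library. The log2 fold changes were -0.46 ± 0.05 (limma adjusted p = 7.35e-05) and -0.29 ± 0.04 (limma adjusted p = 3.44e-04). After the GC and length correction ATP5F1D was at -0.14, a smaller fall that was still called. The FPKM of ATP5F1B divided by that of ATP5F1D, computed in each library, averaged 10.6 ± 0.412 in TBOEP and 4.03 ± 0.261 in DMSO (SD, n = 3 each). The level of ATP5F1A cannot be set against that of ATP5F1B in the same way: the gene model length implied by its values was 10908 bases, against 2238 bases for ATP5F1B, and FPKM divides by it.

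In the membrane part and the stalk of complex V the mixture was the other way. Of 12 tested genes, 3 rose, 6 fell and 3 did not pass (all tested genes: 26.9% rose, 26.9% fell). ATP5MC1, ATP5MC2 and ATP5MC3 encode 3 precursors of the same mature c subunit, which forms the proton-driven ring. ATP5MC1 had 54.4, 55.5 and 54.2 FPKM in the TBOEP libraries, against 70.5, 74.0 and 67.7 FPKM in the DMSO libraries. ATP5MC2 had 162, 162 and 166 FPKM in the TBOEP libraries, against 188, 197 and 186 FPKM in the DMSO libraries. ATP5MC3 had 148, 141 and 156 FPKM in the TBOEP libraries, against 159, 158 and 152 FPKM in the DMSO libraries. ATP5MC1 and ATP5MC2 lay lower in every TBOEP library (log2 fold changes -0.36 ± 0.04, limma adjusted p = 5.06e-05, and -0.22 ± 0.03, limma adjusted p = 3.82e-04), while the groups overlapped for ATP5MC3 (-0.08 ± 0.04, limma adjusted p = 0.131). ATP5MC3 was called lower after the GC and length correction (-0.27), after median centring and without TBOEP replicate 3. Summed over the 3 genes the c subunit mRNAs came to 366 ± 9.49 FPKM in TBOEP and 418 ± 11.6 FPKM in DMSO (SD, n = 3 each). The FPKM of ATP5F1B over ATP5MC2 averaged 4.27 ± 0.0695 in TBOEP and 1.92 ± 0.0573 in DMSO.

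The peripheral stalk, which holds the F1 head still, had rises in 3 of its 4 tested genes (all tested genes: 26.9% rose). ATP5PB, the b subunit, had 52.3, 52.1 and 48.7 FPKM in the TBOEP libraries, against 37.6, 37.3 and 40.6 FPKM in the DMSO libraries. ATP5PO, the OSCP subunit that caps the head, had 10.1, 10.7 and 10.8 FPKM in the TBOEP libraries, against 8.23, 8.07 and 7.84 FPKM in the DMSO libraries. ATP5PF, coupling factor F6, had 48.5, 47.9 and 46.7 FPKM in the TBOEP libraries, against 42.7, 42.7 and 45.1 FPKM in the DMSO libraries. All 3 were higher in every TBOEP library, at 0.40, 0.35 and 0.13 on the log2 scale (limma adjusted p = 7.96e-05, 2.23e-04 and 0.0113), but after the GC and length correction ATP5PO was at 0.06 and ATP5PF at -0.03, neither called, and ATP5PB at 0.26, still called. ATP5PF was also not called after median centring. ATP5PD, the d subunit of the same stalk, had 39.2, 40.1 and 47.0 FPKM in the TBOEP libraries, against 49.7, 48.2 and 48.1 FPKM in the DMSO libraries and fell, at -0.21 ± 0.06 (limma adjusted p = 0.0272); its call ended with no filter on low values and when any 1 library was left out except TBOEP replicate 3 (adjusted p 0.0717 to 0.114 over these), and it stood at -0.39 after the correction.

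Of the small membrane subunits near the c ring, 3 fell and 2 did not pass (all tested genes: 26.9% fell). ATP5ME, the e subunit of the dimer interface, had 27.9, 26.2 and 32.3 FPKM in the TBOEP libraries, against 37.1, 36.5 and 37.4 FPKM in the DMSO libraries. ATP5MK, a small accessory subunit, averaged 303 ± 9.59 FPKM in TBOEP and 370.1 ± 17.2 FPKM in DMSO (SD, n = 3 each), and ATP5MJ, another, averaged 75.1 ± 1.44 FPKM in TBOEP and 90.9 ± 2.60 FPKM in DMSO. Their log2 fold changes ran from -0.36 for ATP5ME to -0.27 for ATP5MJ (limma adjusted p = 0.00359 and 1.18e-04). The correction moved ATP5ME to -0.17 and ATP5MJ to -0.49. ATP5MF and ATP5MG, the f and g subunits, differed by 0.03 ± 0.03 and 0.10 ± 0.07. ATP5IF1, the inhibitor of ATP hydrolysis by this complex, was listed at 0.0125, 0 and 0 FPKM in TBOEP and 0, 0.0134 and 0 FPKM in DMSO, at most 1 read in a library. ATP5MF-PTCD1, a read-through gene, and ATP5MGL, a relative of ATP5MG, were also near 0.

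**Figure D2:**
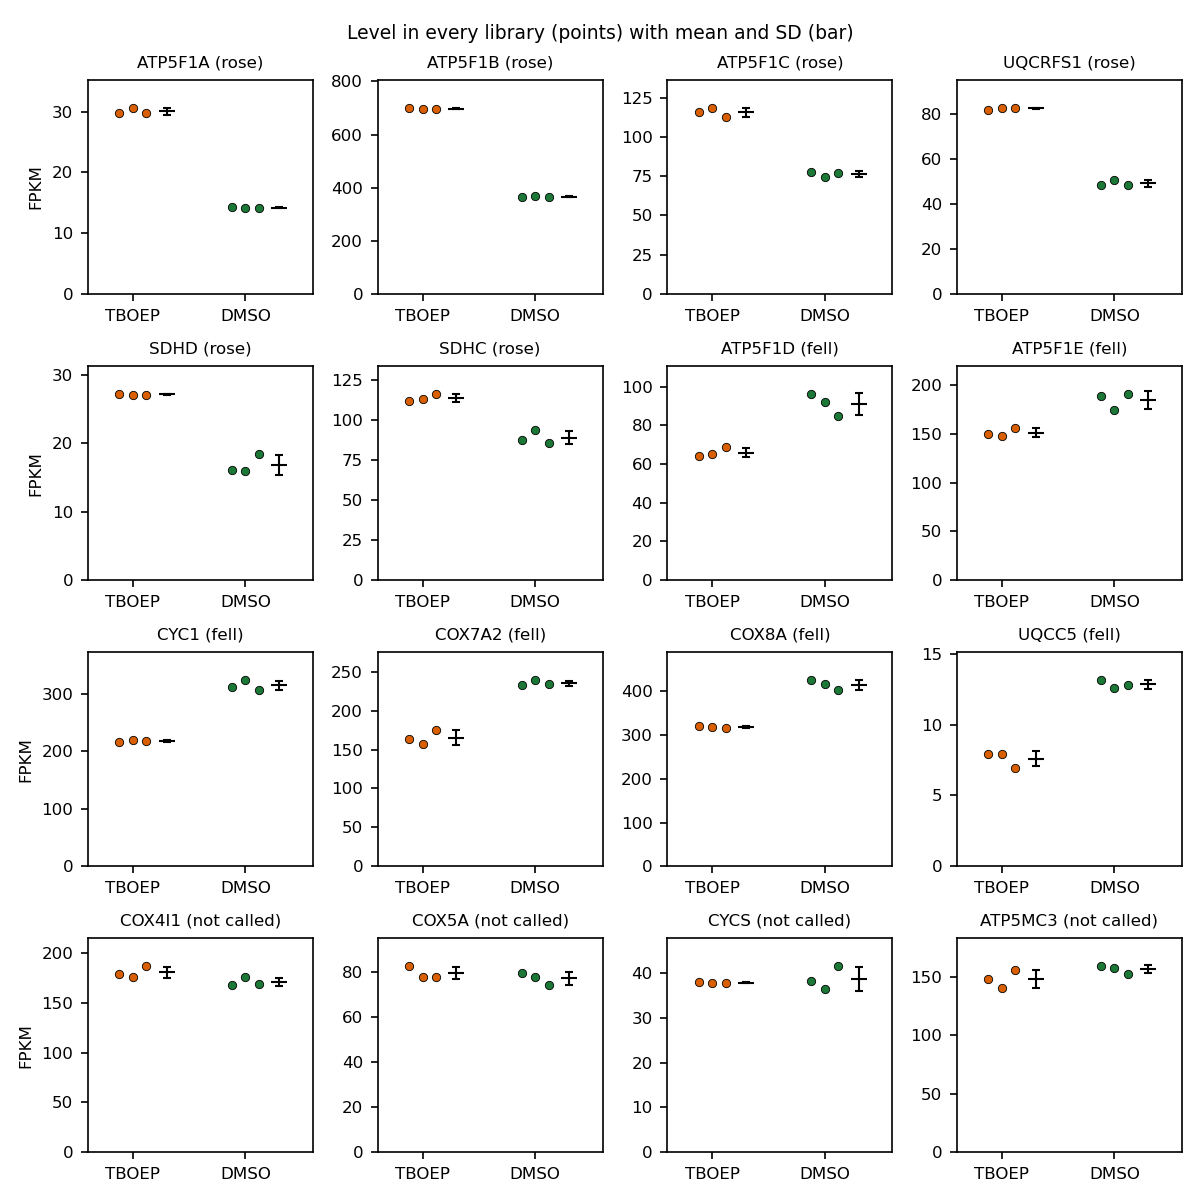
FPKM of 16 genes in each library, TBOEP left and DMSO right, with the mean and SD of each group of 3 as a bar; each axis starts at 0. The 3 TBOEP values of ATP5F1B sit between 695 and 700 FPKM, above the DMSO values, while those of CYC1 sit below the DMSO values.

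Both tested subunits of complex II rose (all tested genes: 26.9% rose). SDHC and SDHD are the membrane anchors that hold the haem and the ubiquinone site. SDHD had 27.2, 27.1 and 27.1 FPKM in the TBOEP libraries, against 16.1, 15.9 and 18.5 FPKM in the DMSO libraries. SDHC had 112, 113 and 116 FPKM in the TBOEP libraries, against 87.1, 93.5 and 85.8 FPKM in the DMSO libraries. No TBOEP library fell within the DMSO range of either gene, and the log2 fold changes were 0.66 ± 0.05 (limma adjusted p = 1.69e-05) and 0.35 ± 0.04 (limma adjusted p = 7.11e-05). SDHC moved to 0.56 after the GC and length correction. The catalytic subunits did not reach the limit for testing. SDHA, the flavoprotein that oxidises succinate, was listed at 0.955, 1.08 and 0.879 FPKM in TBOEP and 0.739, 0.774 and 0.840 FPKM in DMSO, from 226 to 327 reads a library. SDHB, the iron-sulfur subunit, was listed at 0.262, 0.188 and 0.377 FPKM in TBOEP and 0.150, 0.0732 and 0.170 FPKM in DMSO, at most 30 reads.

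Of the 4 complex II assembly factors 2 rose, 1 fell and 1 did not pass (all tested genes: 26.9% rose, 26.9% fell). SDHAF2, which puts the flavin into SDHA, had 6.52, 6.62 and 7.16 FPKM in the TBOEP libraries, against 3.70, 4.41 and 3.71 FPKM in the DMSO libraries. SDHAF3, which helps the iron-sulfur subunit to mature, had 11.9, 13.2 and 12.5 FPKM in the TBOEP libraries, against 8.93, 9.46 and 9.32 FPKM in the DMSO libraries. SDHAF1, which acts on the same subunit, had 25.6, 26.4 and 26.1 FPKM in the TBOEP libraries, against 36.1, 40.5 and 32.7 FPKM in the DMSO libraries. So the 2 factors of SDHB maturation lay on opposite sides, each with no overlap between groups: SDHAF3 at 0.41 ± 0.05 (limma adjusted p = 1.45e-04) and SDHAF1 at -0.46 ± 0.07 (limma adjusted p = 8.69e-04), with SDHAF2 at 0.65 ± 0.07 (limma adjusted p = 6.37e-05). After the GC and length correction SDHAF1 was no longer called (-0.15, limma adjusted p = 0.0658), and SDHAF2 and SDHAF3 shrank to 0.32 and 0.18. SDHAF4, which guides loaded SDHA to SDHB, stood at -0.11 ± 0.07 (limma adjusted p = 0.247); the correction took it to -0.35, a called fall.

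In complex III, 1 of 9 tested subunits rose and 5 fell (all tested genes: 26.9% rose, 26.9% fell). Its 2 nuclear-encoded electron carriers moved apart. UQCRFS1 (ENSG00000169021), the Rieske iron-sulfur protein that takes electrons from ubiquinol, had 82.1, 82.9 and 82.8 FPKM in the TBOEP libraries, against 48.5, 51.0 and 48.4 FPKM in the DMSO libraries. CYC1 (ENSG00000179091), cytochrome c1, to which the Rieske protein hands those electrons, had 216, 221 and 218 FPKM in the TBOEP libraries, against 313, 324 and 308 FPKM in the DMSO libraries. The groups were apart for both genes, UQCRFS1 up by 0.73 ± 0.03 (limma adjusted p = 4.20e-07) and CYC1 at -0.53 ± 0.03 (limma adjusted p = 1.62e-06). UQCRFS1 over CYC1, in FPKM within each library, was 0.378 ± 0.00262 in TBOEP and 0.157 ± 0.00138 in DMSO (SD, n = 3 each). CYC1 was at -0.26 after the GC and length correction, still called. A processed copy, UQCRFS1P1, had 7.79, 7.93 and 10.53 FPKM in the TBOEP libraries, against 8.70, 8.51 and 7.16 FPKM in the DMSO libraries, which overlapped between groups.

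UQCRC1, a core subunit on the matrix side, had 148, 148 and 151 FPKM in the TBOEP libraries, against 168, 181 and 173 FPKM in the DMSO libraries, a small fall with no overlap (-0.22 ± 0.03, limma adjusted p = 4.80e-04; -0.09 after the correction). UQCRC2, the other core subunit, was not tested. It was listed at 0.0486, 0.0874 and 0.134 FPKM in TBOEP and 0.0342, 0.689 and 0 FPKM in DMSO. Its recovered reads were 0 to 53 a library. The implied gene model length, 2294.5 bases, is not whole, so its counts above 0 are too low. Of the small subunits that surround the core 3 also fell: UQCRQ at -0.31, UQCR11 at -0.17 and UQCRH, the acidic hinge protein near cytochrome c1, at -0.13 (limma adjusted p = 1.71e-04, 0.00188 and 0.00878). UQCRQ had 78.2, 78.6 and 85.3 FPKM in the TBOEP libraries, against 101.2, 101.1 and 98.2 FPKM in the DMSO libraries. The correction moved UQCRQ to -0.12 and UQCRH to -0.34, and it turned UQCR11 to 0.17, a call in the other direction (limma adjusted p = 0.00505). UQCRB and UQCR10 differed by -0.01 ± 0.04 and 0.03 ± 0.04, and UQCRHL, a gene whose coding sequence is close to that of UQCRH, by -0.09 ± 0.06; UQCR10 and UQCRHL were called lower after the correction, at -0.28 and -0.40.

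Among the 6 complex III assembly factors UQCC1 rose and UQCC2 and UQCC5 fell (all tested genes: 26.9% rose, 26.9% fell). UQCC5, a small membrane protein, had 7.95, 7.89 and 6.96 FPKM in the TBOEP libraries, against 13.1, 12.5 and 12.8 FPKM in the DMSO libraries, the largest fall of the chain (-0.69 ± 0.05, limma adjusted p = 1.40e-05). UQCC1, which binds newly made cytochrome b, had 16.1, 15.9 and 16.0 FPKM in the TBOEP libraries, against 11.3, 11.5 and 10.9 FPKM in the DMSO libraries. UQCC2, its partner, had 28.97, 30.2 and 30.8 FPKM in the TBOEP libraries, against 32.9, 33.4 and 34.0 FPKM in the DMSO libraries. The partners therefore differed in direction, UQCC1 at 0.48 ± 0.04 (limma adjusted p = 1.54e-05) and UQCC2 at -0.15 ± 0.03 (limma adjusted p = 0.00577), each with the 2 groups apart. The GC and length correction moved UQCC1 to 0.21 and UQCC2 to -0.25. UQCC3, UQCC4 and UQCC6 did not pass, at -0.08 ± 0.10, -0.05 ± 0.06 and 0.07 ± 0.07, and UQCC6 was called lower after the correction (-0.26).

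CYCS, cytochrome c itself, had 37.9, 37.6 and 37.7 FPKM in the TBOEP libraries, against 38.1, 36.3 and 41.4 FPKM in the DMSO libraries. The groups overlapped and the difference was -0.03 ± 0.05 (limma adjusted p = 0.614).

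No tested complex IV subunit rose, 6 fell and 5 did not pass (all tested genes: 26.9% rose, 26.9% fell). COX7A2, the widely expressed form of subunit VIIa, had 164, 157 and 175 FPKM in the TBOEP libraries, against 233, 239 and 234 FPKM in the DMSO libraries. COX6B1, which faces the intermembrane space where cytochrome c docks, had 305, 303 and 322 FPKM in the TBOEP libraries, against 404, 416 and 398 FPKM in the DMSO libraries. COX7C, a small subunit that spans the inner membrane, had 284, 279 and 299 FPKM in the TBOEP libraries, against 371, 374 and 381.9 FPKM in the DMSO libraries. In each of the 3 the highest TBOEP library was still below the lowest DMSO library. COX8A, another small membrane subunit, had 321, 319 and 315 FPKM in the TBOEP libraries, against 426, 418 and 403 FPKM in the DMSO libraries. The 4 log2 fold changes were -0.51 ± 0.04, -0.39 ± 0.03, -0.39 ± 0.03 and -0.38 ± 0.03 (limma adjusted p = 1.25e-05, 1.82e-05, 1.76e-05 and 9.06e-06). COX6A1 and COX6C also fell, at -0.27 ± 0.05 and -0.24 ± 0.04 (limma adjusted p = 0.00126 and 6.47e-04). The GC and length correction moved COX7A2 to -0.77 and COX8A to -0.14, both still called.

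The subunits that begin the nuclear part of complex IV did not follow. COX4I1, the common form of subunit IV, had 179, 176 and 186 FPKM in the TBOEP libraries, against 168, 176 and 169 FPKM in the DMSO libraries. COX5A, its partner in early assembly, had 82.5, 77.9 and 77.8 FPKM in the TBOEP libraries, against 79.7, 77.9 and 74.2 FPKM in the DMSO libraries. Both overlapped between groups, at 0.08 ± 0.03 (limma adjusted p = 0.0737) and 0.04 ± 0.04 (limma adjusted p = 0.405), and COX5A over COX4I1 in FPKM was 0.441 ± 0.0221 in TBOEP and 0.452 ± 0.0191 in DMSO (SD, n = 3 each). COX4I1 was called higher in 4 alternatives: after quantile normalization, by limma-voom on the recovered reads, after the GC and length correction and without DMSO replicate 2. COX7B differed by -0.05 ± 0.03 and was called lower after median centring and after the GC and length correction. COX5B, a further subunit, was listed at 0.0787, 0 and 0 FPKM in TBOEP and 0.0369, 0 and 0 FPKM in DMSO. Its recovered reads were at most 2 a library, a count that is too low because the implied length, 709.5 bases, is not whole.

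Tissue forms of complex IV subunits were mostly at the floor of the measurement. COX6A1, the broadly expressed form of subunit VIa, had 82.5, 80.7 and 80.5 FPKM in the TBOEP libraries, against 105, 98.9 and 91.2 FPKM in the DMSO libraries. COX6A2, its heart and muscle form, had 2.89, 1.9996 and 2.08 FPKM in the TBOEP libraries, against 2.60, 2.52 and 3.69 FPKM in the DMSO libraries, with overlapping groups (-0.24 ± 0.14, limma adjusted p = 0.196). COX7A2L, related to COX7A2 and known for joining complexes III and IV in supercomplexes, had 52.4, 53.7 and 50.6 FPKM in the TBOEP libraries, against 48.9, 49.1 and 51.5 FPKM in the DMSO libraries, which also overlapped (0.07 ± 0.04, limma adjusted p = 0.140) and was called lower after the correction (-0.15). COX4I2, COX7A1, COX6B2 and COX7B2, forms of lung, muscle or testis, had at most 1, 10, 9 and 1 recovered reads in a library and were not tested. The counts of COX4I2 and COX7B2 are too low, as their implied lengths, 334.5 and 408.5 bases, are not whole.

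Of 8 complex IV assembly factors, 7 were tested: 1 rose, 2 fell and 4 did not pass (all tested genes: 26.9% rose, 26.9% fell). COX14, which holds newly made subunit CO1, had 58.3, 55.8 and 57.6 FPKM in the TBOEP libraries, against 77.0, 75.4 and 79.5 FPKM in the DMSO libraries (-0.43 ± 0.03, limma adjusted p = 1.04e-05). COX17, the copper chaperone, had 44.1, 40.7 and 40.2 FPKM in the TBOEP libraries, against 49.7, 44.9 and 46.3 FPKM in the DMSO libraries. COX11, which delivers copper to CO1, had 9.11, 8.79 and 8.53 FPKM in the TBOEP libraries, against 7.05, 6.57 and 7.18 FPKM in the DMSO libraries (0.31 ± 0.05, limma adjusted p = 8.28e-04). The groups were apart in all 3, but the gap was narrow for COX17 (-0.17 ± 0.05, limma adjusted p = 0.0170), whose call ended with no filter on low values and without TBOEP replicate 2, TBOEP replicate 3 or DMSO replicate 1 (adjusted p 0.0558 to 0.0928 over these). COX17 was at -0.33 after the correction. The haem A enzymes COX10 and COX15, the copper-related factor COX19 and the membrane insertase COX18 differed by 0.13, 0.10, 0.13 and 0.16, none called. For COX19 and COX18 every TBOEP library lay above every DMSO library. COX19 was called higher by limma without trend (limma adjusted p = 0.0405), by limma-voom (0.0419) and without DMSO replicate 2 (0.0413). It stood at -0.019 after the GC and length correction, not called. After the correction COX15 was called lower (-0.22) and COX18 higher (0.21). COX16, an assembly factor of subunit CO2, lay just under the limit for testing at 0.859, 0.942 and 1.03 FPKM in TBOEP and 0.777, 0.762 and 0.838 FPKM in DMSO.

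Coding length ran alongside the direction of change in these genes. Coding lengths were those of 1 annotated transcript a gene in GENCODE 29, and the bins were chosen after the values were seen. Of 22 tested genes with a coding length of up to 300 bases, 0 rose and 14 fell, where 24.1% of all 216 tested protein-coding genes of that length rose and 35.2% fell. Of 16 with over 300 and up to 450 bases, 2 rose and 6 fell (31.6% and 33.9% of all genes of that length). Of 8 with over 450 and up to 800 bases, 5 rose and 2 fell (39.4% and 26.9%), and of 11 with more than 800 bases, 6 rose and 2 fell (25.4% and 27.8%). The 2 falls among the longest were CYC1 and UQCRC1. Pearson's r between the log2 fold change and log2 coding length was 0.60 and Spearman's rho 0.55 over the 57 genes. These genes share libraries, so they are not independent. Their GC content varied, with r = -0.35 between it and the log2 fold change. Between the log2 fold change and coding length over 8598 tested protein-coding genes, r was -0.13 and rho -0.16. After the GC and length correction the genes of up to 300 bases counted 1 rise and 17 falls (18.1% and 43.1% of all genes of that length) and those of more than 800 bases 7 rises and 3 falls (20.7% and 23.0%), with r = 0.59 and rho = 0.57 over the 57.

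**Figure D3:**
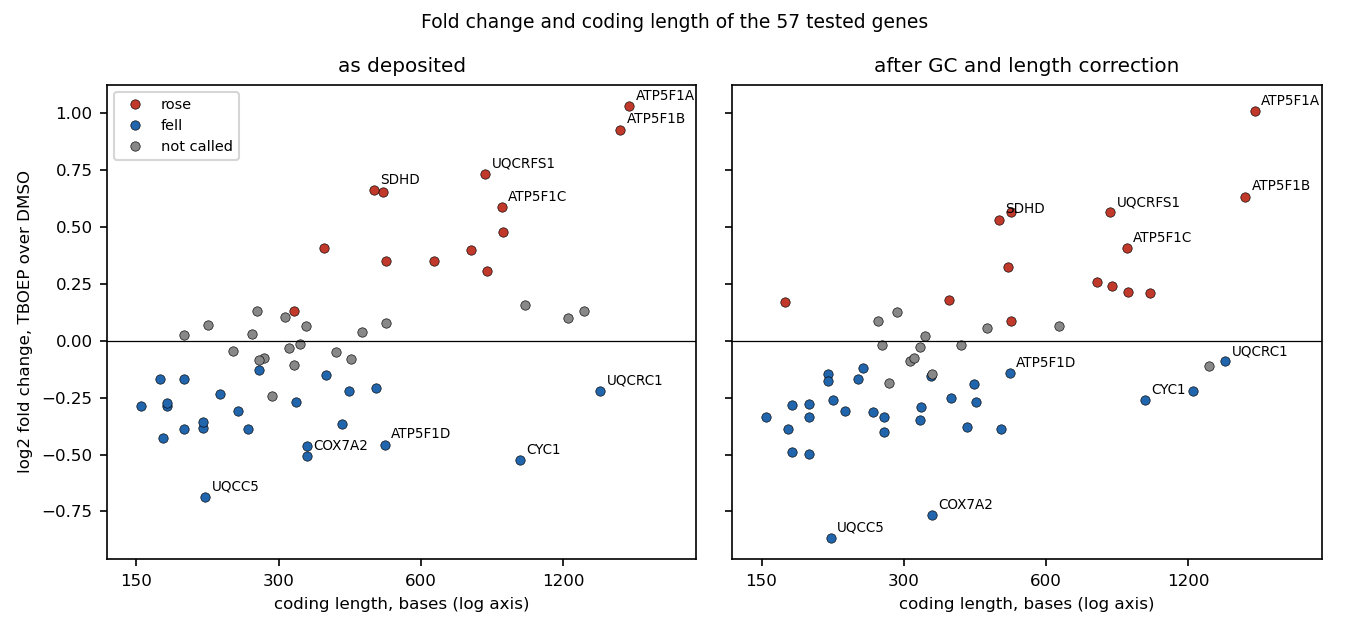
Log2 fold change, TBOEP over DMSO, against coding length on a log axis for the 57 tested genes, from the deposited values (left) and after the GC and length correction (right); colours give the call in each fit. ATP5F1A and ATP5F1B stand at the upper right of both panels, and most genes with short coding sequences lie below 0 in both.

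**Figure D4:**
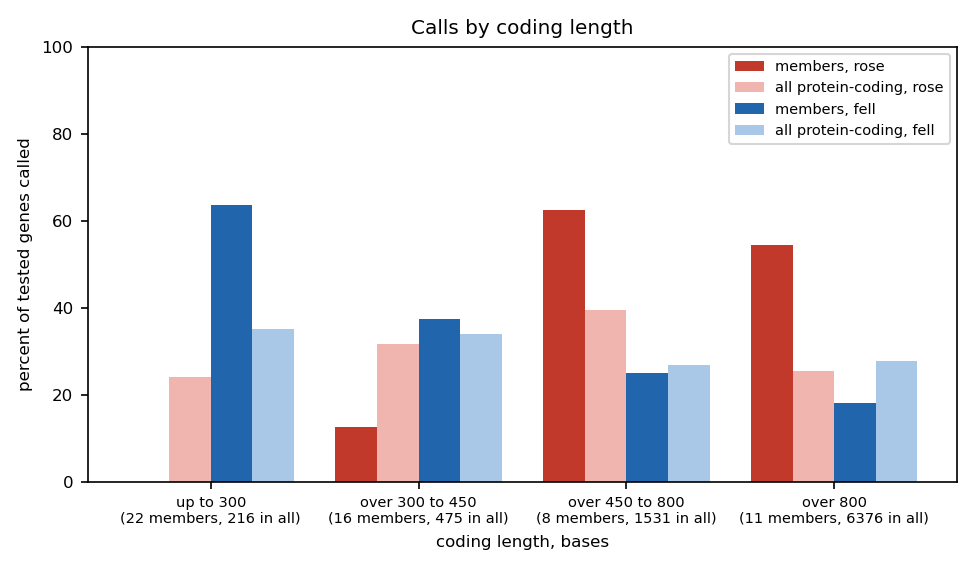
Percent of tested genes called as risen (red) or fallen (blue), by coding length, for genes of complexes II to V (dark) and all tested protein-coding genes (pale). Among the 22 genes of up to 300 bases 14 fell and 0 rose.

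GC content of the transcript also separated the genes. Of 14 with a GC content of at least 55%, 0 rose and 11 fell, where 8.65% of all tested genes of that GC content rose and 48.2% fell. Of 23 with 45 to 55%, 6 rose and 7 fell (44.97% and 10.54% of all), and of 20 under 45%, 7 rose and 6 fell (28.9% and 19.5%). The part of GC content in the falls was not tested beyond the correction above.

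Reads shared with other genes limit some values. By GENCODE 29, whose merged exon lengths equalled the implied gene model length for 2569 of 11787 genes with over 300 reads, 24 of the 69 genes overlap another gene in at least 20% of their exon bases or share at least 20% of their 50-base words with one. Their calls are uncertain, since neither the strand setting nor the treatment of shared reads is given in the sources used here. Among the genes named above these include SDHD and SDHAF2, UQCRQ, UQCRH (with UQCRHL), UQCR11, UQCC2, UQCC5, COX8A, COX11, COX6A1, which shares 44.0% of its words, chiefly with COX6A1P2, ATP5F1E, ATP5ME (61.6% of exon bases, with MYL5), ATP5PF and ATP5PO (69.0% of words, with a read-through gene). COX6A1P2 had 34.0, 39.8 and 40.8 FPKM in the TBOEP libraries, against 50.7, 49.5 and 40.5 FPKM in the DMSO libraries. Without these 24 genes, 37 were tested, of which 8 rose and 15 fell (all tested genes: 26.9% rose, 26.9% fell). SDHB, UQCRC2, COX5B and ATP5IF1 share no such words and overlap no exon there, yet lie near 0 although cells with a working chain use them; why the table lists them so low was not tested, and they show nothing of these genes' response to TBOEP.

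Genes that work with these complexes were taken from a list of 48, of which 40 were tested: 14 rose, 11 fell and 15 did not pass (26.9% of all tested genes rose and 26.9% fell). The balance turned to 12 rises and 16 falls after median centring (22.0% and 35.0% of all tested genes) and to 9 and 12 after the GC and length correction (21.1% and 23.9%). Of the 6 mRNAs that mitochondrial DNA contributes to complexes III to V, 0 rose and 4 fell. MT-CYB, the cytochrome b that UQCC1 and UQCC2 attend, had 1786, 1817 and 1707 FPKM in the TBOEP libraries, against 2359, 2221 and 2206 FPKM in the DMSO libraries (-0.35 ± 0.04, limma adjusted p = 5.16e-05). The catalytic subunits of complex IV differed by -0.08 for MT-CO1, which did not pass, -0.21 for MT-CO2 and -0.25 for MT-CO3, and the complex V subunits by -0.20 for MT-ATP6 and -0.59 for MT-ATP8, the second of which did not pass. The call of MT-ATP6 ended without TBOEP replicate 3 (limma adjusted p = 0.0610) and with no filter (0.0657), and MT-ATP8 was called lower without DMSO replicate 3 (-0.38), the library in which it was highest, and also by limma without trend (limma adjusted p = 0.0376) or robust moderation (0.0184), by limma-voom (0.00251) and after median centring (0.0495). MT-ATP6 ranked 6 among tested genes in every library, so quantile normalization sets its values equal by construction and says nothing of its change. Of the other 3 falls MT-CYB was not called after it (-0.14, limma adjusted p = 0.0681). MT-CO1 ranked 3 in every TBOEP library and 4 in every DMSO library, MT-CO2 4 and 2, and MT-CO3 5 and 3. After quantile normalization these 3 genes thus had no spread within a group. Their values then, such as 0.04 for MT-CO1, rest on rank alone and cannot test their change. Median centring gave 6 falls and the GC and length correction 5, with MT-CYB at -0.66, MT-CO1 at -0.40, MT-CO2 at -0.43, MT-CO3 at -0.51 and MT-ATP6 at -0.39.

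Nuclear assembly genes outside the families above moved in both directions. Of 18 tested genes listed with complex IV assembly 7 rose and 3 fell, and of 6 tested complex V factors 3 rose and 0 fell. For these and the cristae genes below, the shares of all tested genes were 26.9% risen and 26.9% fallen. NDUFA4, 1 of the 3 falls (-0.24 ± 0.02, limma adjusted p = 6.34e-05), is also described as a complex IV subunit. It is not in the subunit counts above. ATPAF1, the chaperone of the beta subunit, had 7.26, 8.02 and 7.19 FPKM in the TBOEP libraries, against 4.92, 4.80 and 5.07 FPKM in the DMSO libraries (0.52 ± 0.05, limma adjusted p = 6.02e-05), so it rose along with ATP5F1B. HCCS, which attaches haem to CYCS and CYC1, had 42.3, 44.2 and 41.5 FPKM in the TBOEP libraries, against 29.9, 29.7 and 31.8 FPKM in the DMSO libraries (0.47 ± 0.04, limma adjusted p = 1.83e-05), while CYC1 fell. Of 6 tested genes of supercomplexes and cristae 2 rose and 4 fell, and members of the MICOS complex of crista junctions were on both sides. MICOS13 had 88.3, 87.3 and 89.6 FPKM in the TBOEP libraries, against 144, 148 and 145 FPKM in the DMSO libraries (-0.72 ± 0.03, limma adjusted p = 2.22e-07). CHCHD3 had 28.0, 28.9 and 27.0 FPKM in the TBOEP libraries, against 18.6, 18.2 and 19.2 FPKM in the DMSO libraries (0.56 ± 0.04, limma adjusted p = 6.65e-06). After the GC and length correction ATPAF1, HCCS, MICOS13 and CHCHD3 were at 0.19, 0.15, -0.37 and 0.22, all still called. CHCHD6, another MICOS subunit and 1 of the 4 falls, was at -0.24 before the correction and -0.03 after it (limma adjusted p = 0.617). Of the 18 genes listed with complex IV assembly, 3 rose and 4 fell after the correction (21.1% and 23.9% of all genes). After median centring 5 rose and 4 fell (22.0% and 35.0% of all tested genes), with COA1 and COA4 no longer called. The rise of COA1 also lost its call when any 1 library was left out except DMSO replicate 3. That of COA8 lost it without TBOEP replicate 2, DMSO replicate 1 or DMSO replicate 2.

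Of 10 tested regulators of respiratory chain genes 2 rose, 3 fell and 5 did not pass (26.9% of all tested genes rose and 26.9% fell). NRF1, whose motif is marked in the promoters above, had 5.21, 4.91 and 5.24 FPKM in the TBOEP libraries, against 3.40, 3.21 and 3.82 FPKM in the DMSO libraries (0.45 ± 0.06, limma adjusted p = 3.62e-04; 0.21 after the GC and length correction). YY1 had 9.40, 10.2 and 9.65 FPKM in the TBOEP libraries, against 8.25, 7.99 and 8.42 FPKM in the DMSO libraries (0.22 ± 0.05, limma adjusted p = 0.00365). ESRRA, a nuclear receptor of mitochondrial genes, had 21.2, 21.3 and 23.1 FPKM in the TBOEP libraries, against 31.3, 31.3 and 32.4 FPKM in the DMSO libraries (-0.52 ± 0.04, limma adjusted p = 1.45e-05; -0.25 after the correction). HIF1A and PPRC1 also fell, at -0.31 ± 0.06 and -0.15 ± 0.05 (limma adjusted p = 0.00159 and 0.0433). PPRC1 lost its call without TBOEP replicate 1 or 3 or DMSO replicate 1 or 2 (limma adjusted p 0.0607 to 0.146), with the replicate block (0.0781), without trend (0.0609) and with no filter (0.156). GABPA, TFAM and MYC were among those that did not pass. TFAM, at -0.14, was called lower after quantile normalization (limma adjusted p = 0.0179), after median centring (0.0168) and without DMSO replicate 2 (0.0236), and MYC, at 0.13 once corrected for GC content and length, was then called higher (limma adjusted p = 0.00546). The coactivator PPARGC1A, at most 0.619 FPKM in any library, was not tested. Whether these levels bear on the genes above was not tested.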

How the data were processed

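RNA-seq values of 6 HK2 libraries (3 TBOEP, 3 DMSO) were grouped by the treatment label. The authors deposited FPKM per Ensembl gene. The header names no unit, which was inferred from the values: within a gene they are whole multiples of 1 step. Whole reads were recovered for 25808 genes (tolerance 0.01 reads). Recovered reads are the smallest whole numbers that fit, so they can be too low in genes with few reads. Per the labels' protocols RNA was extracted with TRIzol, and 2 library kits are named without saying which libraries used which. The submitters' processing notes name Trimmomatic and HISAT2; which counting tool, build and annotation were used is not given in the sources used here. Symbols matched 25795 genes.

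Genes that reached 1 FPKM in 3 or more of the 6 libraries were tested two-sided with limma 3.58.1 in R 4.3.3 (trended, robust) on log2(FPKM + 1), a scale that understates the change of low genes, with Benjamini-Hochberg adjustment over 9631 genes and no covariate; the call is an adjusted p under 0.05. The test and the recovery were checked on simulated data. Within groups, replicate libraries differed by 7.74 to 9.38 in chi-square per degree of freedom, so each stands as its own library. Values in every library are given for up to 4 called genes with the largest change in each role group, for a fixed set of core subunits and for isoform pairs; any member may be named, and from the pathway list the 5 genes with the smallest p and the mitochondrial mRNAs. The members, lists, tests and alternatives were chosen with earlier results of these data known. The 17 alternatives were limma without trend or robust moderation, a pseudocount of 0.1 FPKM, a filter at 5 FPKM or none, median centring, quantile normalization, a replicate block, protein-coding genes alone, limma-voom on the recovered reads, a GC and length correction (mgcv 1.9.3; GC content and length of 1 GENCODE 29 transcript, known for 98.9% of tested genes) and each library left out. Exon overlap and shared 50-base words were computed from GENCODE 29. One marker gene is not reported here.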

Additional observations from a re-analysis of the deposited data

How the results depend on the processing

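Of the 37 called genes 31 kept their call in all 17 alternatives; ATP5PF, COX17, ATP5PD, SDHAF1, UQCR11 and ATP5PO lost it in at least 1, and 11 genes that were not called were called in at least 1. ATP5PD had adjusted p 0.0717 to 0.0834 without TBOEP replicate 1, TBOEP replicate 2 or any 1 DMSO replicate, and 0.114 with no filter. Members that rose numbered 12 to 15 and those that fell 22 to 30 over all alternatives. With 1 library left out they numbered 13 to 15 and 22 to 24. Over all genes 3714 to 5485 were called, but from unlike numbers of tested genes. The filter at 5 FPKM gave 3714 of 5205, no filter 4105 of 25808 and median centring 5485 of 9631. With 1 library left out 4556 to 4774 of 9631 were called. With the replicate number as a block 4791 genes were called, 13 members rose and 24 fell. Whether same-numbered libraries are paired is not known. Their deviations correlated at 0.105, -0.033 and 0.007, and not every library correlated best with its own number. With 3 libraries a group these values cannot settle the pairing.

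Signs turned in these cases, and the cause was not tested. With median centring UQCR10 was at -0.034, COX5A at -0.021 and ATP5MF at -0.032. With the GC and length correction UQCC6 was at -0.26, UQCR11 at 0.17, UQCRB at 0.023, UQCR10 at -0.28, COX15 at -0.22, COX19 at -0.019, COX10 at -0.11, COX6A2 at 0.12, COX7A2L at -0.15, ATP5MG at -0.091 and ATP5PF at -0.029. With 1 library left out, UQCRB ran from -0.040 to 0.018, UQCR10 from -0.013 to 0.063, UQCC4 from -0.084 to 0.012 and CYCS from -0.072 to 0.021. Of these genes UQCR11 and ATP5PF were called in the comparison as reported. The 12 genes that were not tested missed the FPKM limit. Of these, 8 had at most 10 recovered reads in any library, too few to show a difference at this depth, whereas SDHA had 226 to 327. The recovered counts of UQCRC2, COX5B, COX4I2, COX7B2 and ATP5MF-PTCD1 are too low, since their implied lengths are not whole.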
